A study of Mus musculus with 9 samples.

Results

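The genes described here are 6 genes that mark the direct pathway neurons of the striatum: Drd1, Tac1, Pdyn, Chrm4, Isl1 and Eya1. They were chosen by name from the 21631 protein-coding genes on the autosomes and X. CpG methylation was read by whole-genome bisulfite sequencing of DNA from frozen punches of the nucleus accumbens of male C57BL/6J mice, 8 weeks old. The labels put 5 libraries in a Control group (numbers 2, 3, 4, 5 and 8) and 4 in a Susceptible group (numbers 2, 3, 6 and 7). One account of the treatment stands beside all 9 libraries alike: daily defeat by an older aggressive CD1 male, 10 times. How the Control mice were kept, how susceptibility was scored and whether a library pools animals are not stated in the labels, so p-values measure the spread between these libraries. The comparison asked whether CpG methylation of these genes differed between the groups.

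The striatum, of which the nucleus accumbens is the ventral part, holds 2 kinds of GABA projection neuron. Direct pathway neurons carry the D1 dopamine receptor and send axons to the midbrain, while indirect pathway neurons carry the D2 receptor and project mainly to the pallidum. Drd1 encodes the D1 receptor, which raises cyclic AMP, and Chrm4 the M4 muscarinic receptor, which lowers it in the same cells. Tac1 encodes the precursor of substance P and Pdyn the precursor of the dynorphins, peptides that direct pathway neurons release with GABA. Isl1 is a LIM homeodomain transcription factor that directs the identity of these neurons in development, and Eya1 is a transcriptional coactivator and phosphatase. In mammalian genomes CpG-rich gene starts are usually unmethylated and gene bodies methylated. A punch mixes neurons of both pathways with other cells, so fewer cells of a type and a different level within those cells cannot be told apart here, and marker RNA, by which the tissue label could be checked, was not measured.

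Sequences upstream of the start are shown for 4 of the genes because they span the range of CpG density on which the start levels below were read. They come from RefSeq on the GRCm38.p6 build, end 1 base before the transcription start, and have their CpGs in capitals. The Drd1 stretch lies at chr13:54055659-54055908 on the minus strand and holds 15 CpGs in its 250 bases.
Drd1: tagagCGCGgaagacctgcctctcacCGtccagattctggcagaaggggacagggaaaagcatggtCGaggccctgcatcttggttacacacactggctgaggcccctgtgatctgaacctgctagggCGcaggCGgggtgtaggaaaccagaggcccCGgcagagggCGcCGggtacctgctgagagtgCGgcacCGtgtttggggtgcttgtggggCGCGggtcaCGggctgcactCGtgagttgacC
The Tac1 stretch lies at chr6:7554811-7555060 on the plus strand and holds 17 CpGs.
Tac1: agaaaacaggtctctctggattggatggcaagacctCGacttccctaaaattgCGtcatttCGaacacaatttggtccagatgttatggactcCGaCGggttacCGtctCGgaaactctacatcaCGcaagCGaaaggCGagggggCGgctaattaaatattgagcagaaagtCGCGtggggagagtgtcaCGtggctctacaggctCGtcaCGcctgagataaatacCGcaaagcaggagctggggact
The Pdyn stretch, at chr2:129699939-129700188 on the minus strand, is the poorest of these genes and holds 8 CpGs.
Pdyn: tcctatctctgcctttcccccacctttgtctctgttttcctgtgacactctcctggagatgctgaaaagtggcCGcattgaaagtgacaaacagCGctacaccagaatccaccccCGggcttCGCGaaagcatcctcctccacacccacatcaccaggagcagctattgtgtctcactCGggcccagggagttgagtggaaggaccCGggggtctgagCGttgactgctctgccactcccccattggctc
The Isl1 stretch, at chr13:116309689-116309938 on the minus strand, is the richest with 33 CpGs.
Isl1: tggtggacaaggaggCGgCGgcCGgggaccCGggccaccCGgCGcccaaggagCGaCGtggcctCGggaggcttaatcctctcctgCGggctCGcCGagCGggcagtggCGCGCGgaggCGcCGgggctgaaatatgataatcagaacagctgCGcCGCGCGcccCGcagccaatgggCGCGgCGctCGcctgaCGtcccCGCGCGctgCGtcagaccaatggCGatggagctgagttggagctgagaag

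Counted over 300 bases, from 250 before the start to 50 after it, Drd1 held 23 CpGs, Tac1 22, Pdyn 11, Chrm4 30 and Isl1 37. Of the 32851 promoters in the same table, 78.5% had fewer CpGs than that of Drd1, 76.9% fewer than Tac1, 58.6% fewer than Pdyn, 88.3% fewer than Chrm4 and 94.4% fewer than Isl1. Every CpG of these windows was listed in at least 1 library, and no CpG was listed there that the sequence lacks. The table held no entry for Eya1. A search of both strands for TGACG, the core of the cyclic AMP response element, found it in Tac1 at -197 and -43 and in Isl1 at -59 and -41, and in 20.8% of all promoters. The full element TGACGTCA, present in 1.79% of all promoters, was in none of the 5 genes. The E-box CACGTG, present in 7.15% of all promoters, was in Tac1 at -61. TATAAA, present in 13.6%, was in none of the 5. These matches describe letters only and say nothing of binding.

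All 5 of these promoters were close to unmethylated in every library. The level is the percent of calls read as methylated, with both strands of a CpG added. Over the 300 bases it ranged from 1.38 to 3.87% for Drd1, from 0 to 3.65% for Tac1, from 0.896 to 4.09% for Pdyn, from 0.205 to 1.89% for Chrm4 and from 0 to 3.83% for Isl1. Control and Susceptible means were 2.35% ± 1.04 (SD, n = 5) and 2.34% ± 0.392 (SD, n = 4) for Drd1, and 2.79% ± 1.45 (SD, n = 5) and 2.04% ± 1.30 (SD, n = 4) for Pdyn. Most single CpGs in these windows lay near 0, with medians between 0.554% in Chrm4 and 1.81% in Tac1. The Isl1 window had the highest mean of any, 11.1% at the CpG 141 bases before the start. There Control 8 read 94.1% from 17 calls, and the next library read 3.64%.

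RefSeq lists a second start inside the gene for Drd1 and for Pdyn, and those windows were poorer in CpGs and more methylated. At the second Drd1 start, with 6 CpGs in 300 bases, Control 5 read 0% and the other 8 libraries read 16.3 to 30.1%. The Control mean was 19.3% ± 11.4 (SD, n = 5) and the Susceptible mean 23.8% ± 5.51 (SD, n = 4), from 55 to 233 calls per library (two-sided exact permutation p = 0.587). The second Pdyn start held 5 CpGs, none listed in all 9 libraries, and Control 8 had no call there. The Susceptible libraries read 39.3 to 63.0% at it, while Control 2 read 20%, Control 4 and Control 5 read 0% and Control 3 read 69.6%, from at most 56 calls. These levels rest on different CpGs: those at -238 and -235 were each listed in 2 libraries and in no Control library. Control 3 read 36.4% from 11 calls at -117 and 100% from 12 calls at -88. The groups are thus not compared over the same CpGs at this start.

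**Figure D1:**
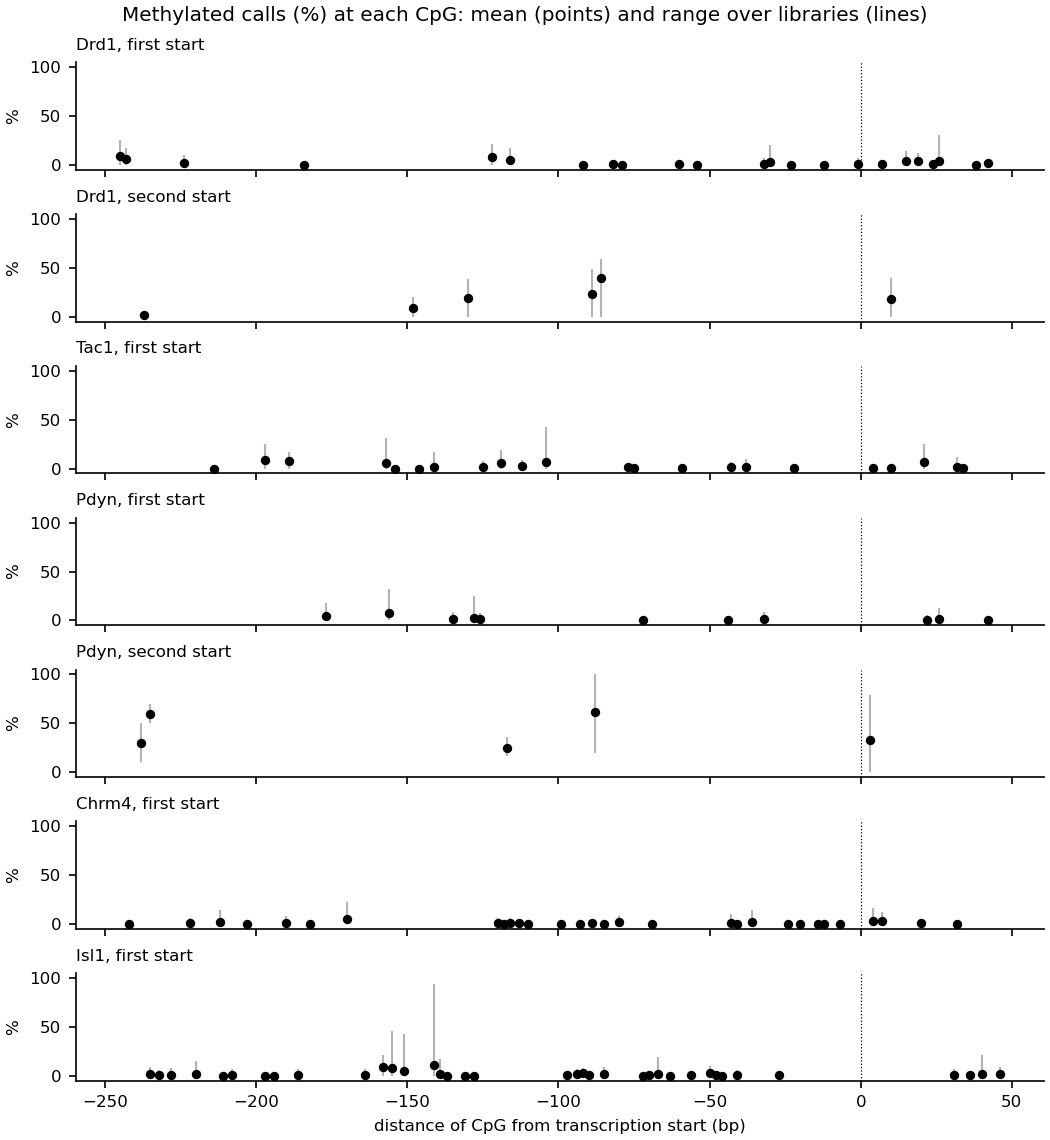
Methylated calls (percent) at each CpG against its distance from the transcription start (bp), for the 7 starts that RefSeq lists for Drd1, Tac1, Pdyn, Chrm4 and Isl1. Points are means and lines the range over the libraries that list the CpG; points at the first starts lie near 0, and those at the second starts of Drd1 and Pdyn reach 39.9% and 61.8%.

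Group differences were tested in windows reaching 1 kb to each side of the gene start, in gene bodies and in 1-kb tiles. Of 19328 start windows tested across the genome, 0% were called at an adjusted p under 0.05, 4.89% had an unadjusted p under 0.05, and in 1.99% the libraries of the groups did not overlap. All 6 genes passed the minimum, which asks 3 CpGs and 20 calls of each library; 0 of 6 were called, 0 of 6 had an unadjusted p under 0.05 and in 0 of 6 were the groups apart. The mean was lower in Susceptible libraries for 5 of the 6, with a median difference of -0.22 percentage points, against 52.0% lower and a median of -0.06 points over all start windows. The count turned with the CpGs used: over CpGs listed in all 9 libraries, and also with at least 20 calls per cytosine, the Susceptible mean was higher for 4 of the 5 genes with a value (Eya1 had none).

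For the receptors, the Drd1 start window was 9.88% methylated in the first Control library (number 2), then 8.89, 8.40, 2.66 and 20.6% in numbers 3, 4, 5 and 8. Susceptible libraries 2, 3, 6 and 7 read 6.59, 10.1, 11.3 and 10.1%. Control 5 was the lowest and Control 8 the highest of all 9, with the Susceptible libraries between them. The means were 10.1% ± 6.53 (SD, n = 5) and 9.52% ± 2.03 (SD, n = 4); they differed by -0.57 points (two-sided exact permutation p = 0.865). Control 5 and Control 8 are also the libraries in which the strands of a CpG disagreed most, 18.6 and 19.8 times the binomial expectation against 2.38 to 6.12 times in the others. Over the 42 CpGs of the Drd1 window that all 9 libraries list, Control 5 read 3.5% and Control 8 read 8.6%, the whole range narrowed to that between them, and the difference was +0.09 points. The part of strand disagreement in this spread was not tested.

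The Chrm4 start window was lower and tighter. The Control libraries, in the order of their numbers, read 5.28, 2.28, 5.18, 4.86 and 5.11%, and the Susceptible ones 4.76, 6.41, 3.88 and 2.58%. Control 3 and Susceptible 7 were low and the groups overlapped throughout. The means were 4.54% ± 1.27 (SD, n = 5) and 4.41% ± 1.61 (SD, n = 4), from 2776 to 6110 calls per library (two-sided exact permutation p = 0.881).

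Of the peptide genes, the Tac1 start window read 11.3, 18.4, 13.0, 12.3 and 4.70% in the Control order, then 13.6, 12.9, 13.1 and 14.2% in the Susceptible order. The Susceptible libraries sat close together inside the Control range, which Control 3 and Control 8 set. The means were 11.9% ± 4.88 (SD, n = 5) and 13.5% ± 0.59 (SD, n = 4); they differed by +1.53 points (two-sided exact permutation p = 0.579). For Pdyn the libraries read 15.3, 18.9, 14.9, 11.0 and 16.0% in the same Control order and 14.6, 15.3, 16.0 and 13.9% in the Susceptible order. Here too the Susceptible libraries lay within the Control range, at 14.9% ± 0.909 (SD, n = 4) against 15.2% ± 2.84 (SD, n = 5) (two-sided exact permutation p = 0.802).

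Of the regulators, the Isl1 start window was the least methylated of the 6, from 1.79% in Susceptible 6 to 3.25% in Control 5. Its group means were 2.47% ± 0.529 (SD, n = 5) and 2.34% ± 0.455 (SD, n = 4), and 17.2% of tested start windows had a lower mean level. Eya1 has no strand in the table, so the end of the gene with more listed CpGs stood for its start, the end at position 14311035 of chromosome 1; the other end read 92.1 to 98.7%. That window held only 10 to 18 listed CpGs and 192 to 561 calls, and its level was 30.6, 25.9, 15.9, 0 and 40.4% in the Control order against 16.4, 14.1, 12.4 and 15.1% in the Susceptible order. The extremes were Control 5 and Control 8, the libraries in which the strands of a CpG disagreed most, and the Susceptible libraries clustered. The part of strand disagreement in this spread was not tested. In this window 0 CpGs were listed in all 9 libraries, so the levels rest partly on different CpGs. Control 5 had 0 of 201 calls methylated, which allows a level of up to 1.49% by a floor of 3 calls and 1.88% by the 95% Wilson upper limit, and Control 8 had a 95% Wilson interval of 35.6 to 45.3%; these cover only counting error, as reads repeating a molecule count apart. The difference of -8.08 points was within this spread (two-sided exact permutation p = 0.365), and 97.2% of start windows had a smaller absolute difference. It was -3.63 points without Control 8, -13.7 points without Control 5 and -9.67 points without both of them. In a window of 2 kb to each side it was -3.57 points.

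**Figure D2:**
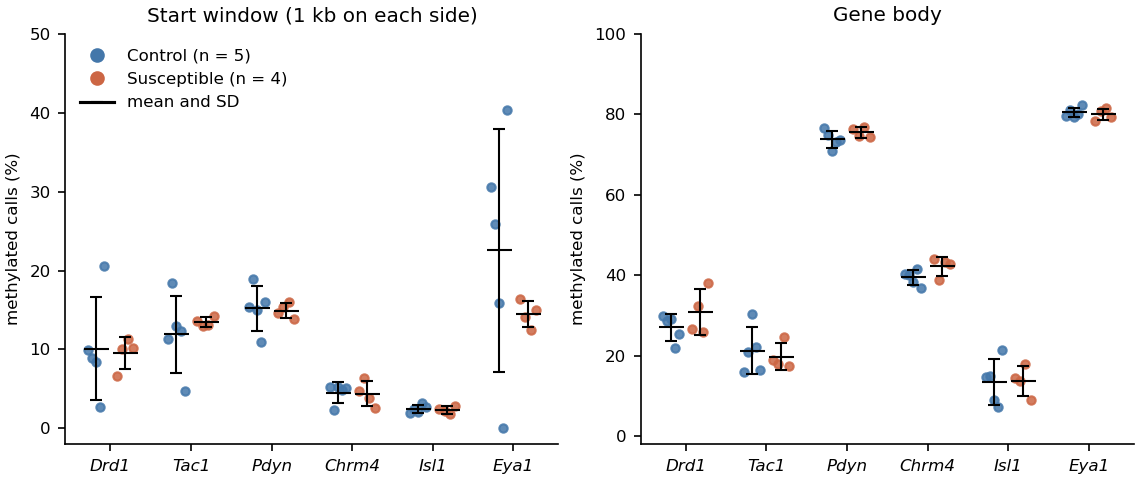
Methylated calls (percent) in the start window and gene body of each gene, by library; blue points are Control libraries (n = 5), orange points Susceptible libraries (n = 4), and black bars the group mean and SD. The groups overlap for each gene in both windows, and the Control spread at the Eya1 start, from 0 to 40.4%, is the widest.

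Gene bodies separated the 6 genes more than they separated the groups. Across the genome 0% of 20101 bodies were called at an adjusted p under 0.05, 5.11% had an unadjusted p under 0.05 and 1.61% had groups that did not overlap. Among the 6 genes 0 were called, 0 had an unadjusted p under 0.05 and 0 had groups apart. The median difference was +0.97 points, with 4 of 6 higher in the Susceptible mean, against a median of -0.43 points and 60.3% lower over all bodies.

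Drd1, a gene of 4.48 kb at chr13:54051183-54055658, had a body level of 30.0, 28.6, 29.2, 21.9 and 25.5% in the Control order. The Susceptible libraries read 26.7, 32.4, 25.99 and 38.1%. Susceptible 7 stood above the rest and the other 3 Susceptible libraries lay among or near the Control ones. The means were 27.0% ± 3.34 (SD, n = 5) and 30.8% ± 5.66 (SD, n = 4), +3.77 points apart (two-sided exact permutation p = 0.254), which was +1.32 points without Susceptible 7, +2.49 points without Control 5 and +5.81 points with at least 20 calls per cytosine. Beyond 1 kb from the start, the rest of the body read 79.8% in Susceptible 7 and 49.9 to 63.8% in the other 8.

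Chrm4, of 7.65 kb at chr2:91922189-91929835, read 40.2, 40.1, 38.4, 41.5 and 36.9% in the Control order. In the Susceptible order it read 44.1, 38.8, 43.2 and 42.7%. Thus 3 of 4 Susceptible libraries exceeded every Control library and Susceptible 3 did not. The means of 39.4% ± 1.80 (SD, n = 5) and 42.2% ± 2.31 (SD, n = 4) differed by +2.77 points, the smallest unadjusted model p of the 6 bodies (p = 0.0613, quasi-binomial model with limma-type moderation; adjusted p = 0.961; two-sided exact permutation p = 0.0873). The difference was between +1.18 and +4.43 points under the 19 alternatives tried, and 78.0% of bodies had a smaller absolute difference.

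The Tac1 body, of 7.92 kb at chr6:7555061-7562978, read 16.1, 20.9, 30.5, 22.2 and 16.4% in the Control order and 18.9, 17.9, 24.8 and 17.4% in the Susceptible order. Control 4 was the highest, and the means were 21.2% ± 5.84 (SD, n = 5) and 19.7% ± 3.40 (SD, n = 4) (two-sided exact permutation p = 0.690). The difference was -1.47 points over all listed CpGs, -2.33 points over the 37 CpGs listed in all 9 libraries and -6.19 points with at least 20 calls per cytosine. Over those 37 CpGs the groups did not overlap, at 10.1 to 12.9% in Control and 7.27 to 9.64% in Susceptible libraries (adjusted p = 0.974, quasi-binomial model). The share of all bodies apart over such CpGs was not computed. The body difference was +4.51 points with each listed CpG weighted equally and +0.59 points without the most covered CpGs. Leaving out 1 library gave from -3.14 points (without Susceptible 6) to +0.85 points (without Control 4).

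The Pdyn body, of 13.4 kb at chr2:129686549-129699938, was methylated over most of its length. It read 76.6, 74.9, 70.9, 73.0 and 73.5% in the Control order and 76.4, 74.5, 76.8 and 74.3% in the Susceptible order, with Control 4 lowest. The means were 73.8% ± 2.13 (SD, n = 5) and 75.5% ± 1.27 (SD, n = 4) (two-sided exact permutation p = 0.198). They differed by +1.71 points, which was +0.99 points without Control 4, +2.42 points without Control 2 and +0.60 points with each listed CpG weighted equally.

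Isl1, of 11.4 kb at chr13:116298270-116309688, had the lowest body of the 6, and only 3.98% of tested bodies had a lower mean. Its libraries read 14.8, 14.99, 8.93, 7.28 and 21.5% in the Control order and 14.4, 13.6, 18.0 and 8.93% in the Susceptible order. Control 8 was highest and Control 5 lowest, as at the Drd1 start, and the Susceptible libraries lay between (means 13.5% ± 5.65, SD, n = 5, and 13.7% ± 3.73, SD, n = 4). The dispersion of its calls, 97.9 times the binomial value, exceeded that of 94.6% of bodies. Eya1, of 142 kb at chr1:14168953-14311035, read between 78.4% in Susceptible 2 and 82.2% in Control 8. The Eya1 means were 80.4% ± 1.22 (SD, n = 5) and 80.0% ± 1.40 (SD, n = 4), from 14940 to 26246 calls per library.

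Ordered by body level, the genes ran Isl1, Tac1, Drd1, Chrm4, Pdyn, Eya1. The upper steps held in all 9 libraries: Chrm4 exceeded Drd1 by 11.9 points on average (SD 5.15), Pdyn exceeded Chrm4 by 33.9 points (SD 2.03) and Eya1 exceeded Pdyn by 5.72 points (SD 2.28). Tac1 exceeded Isl1 in 8 of 9 libraries, by 6.95 points with an SD of 7.68, and Drd1 exceeded Tac1 in 7 of 9, by 8.15 points with an SD of 7.42. These body levels include the low start of each gene. Beyond 1 kb from the start, Drd1 averaged 59.4% and Chrm4 47.7%, while Pdyn averaged 82.6% and Eya1 81.2%. The order within each of those pairs was thus the reverse of that of whole bodies. At the start windows the order was Isl1, Chrm4, Drd1, Tac1, Pdyn, Eya1. There no step held in all 9 libraries; Chrm4 exceeded Isl1 in 7 by 2.07 points (SD 1.51), and the steps from Drd1 to Tac1, Tac1 to Pdyn and Pdyn to Eya1 had an SD larger than their mean. Bodies exceeded starts for each gene in each library, by 7.94 points on average for Tac1, 11.2 for Isl1, 18.9 for Drd1, 36.2 for Chrm4, 59.4 for Pdyn and 61.3 for Eya1. For Eya1 that excess and its place in the start order rest on the window at the gene end taken as its start. The Eya1 tile of lowest level, centred 1534 bp inside that end, averaged 3.75% and lay outside the window.

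The 1-kb tiles show where the low methylation ends. Spans from 5 kb before to 5 kb after the genes held 249 tiles, of which 149 passed the minimum: 12 of 15 for Drd1, 17 of 18 for Chrm4, 6 of 17 for Tac1, 22 of 24 for Pdyn, 19 of 22 for Isl1 and 73 of 153 for Eya1. In Drd1 the low stretch was 1 tile wide. The tile centred 157 bp inside the Drd1 start read 1.205 to 3.16% over the 9 libraries, while its neighbours averaged 72.0% on the upstream side and 50.7% downstream. In Chrm4, 3 tiles in a row from -688 to +1312 bp averaged under 10%, the lowest 2.17%, and the next averaged 18.3% before the level rose to 65.8%. A further low stretch of 29.4 to 36.3% lay beyond the Chrm4 3' end, from +8312 to +10312 bp, over the gene Mdk and one end of Dgkz; Mdk overlaps the last 31 bp of Chrm4, before this stretch.

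For Tac1 the tile at +440 bp read 1.55 to 3.502% and the next averaged 10.7%, and for Pdyn the tile at +437 bp read 5.20 to 11.8% with its upstream neighbour at 34.97%. Isl1 differed in shape: all 19 of its tested tiles, from -4813 to +16187 bp, averaged between 2.25 and 30.6%, and none of these reached 50%. In Eya1 the lowest tile lay 1534 bp inside the gene end taken as its start, at 1.32 to 8.30%, with 10.9% in the tile nearer that end and 70 of 73 tested tiles at 50% or more.

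**Figure D3:**
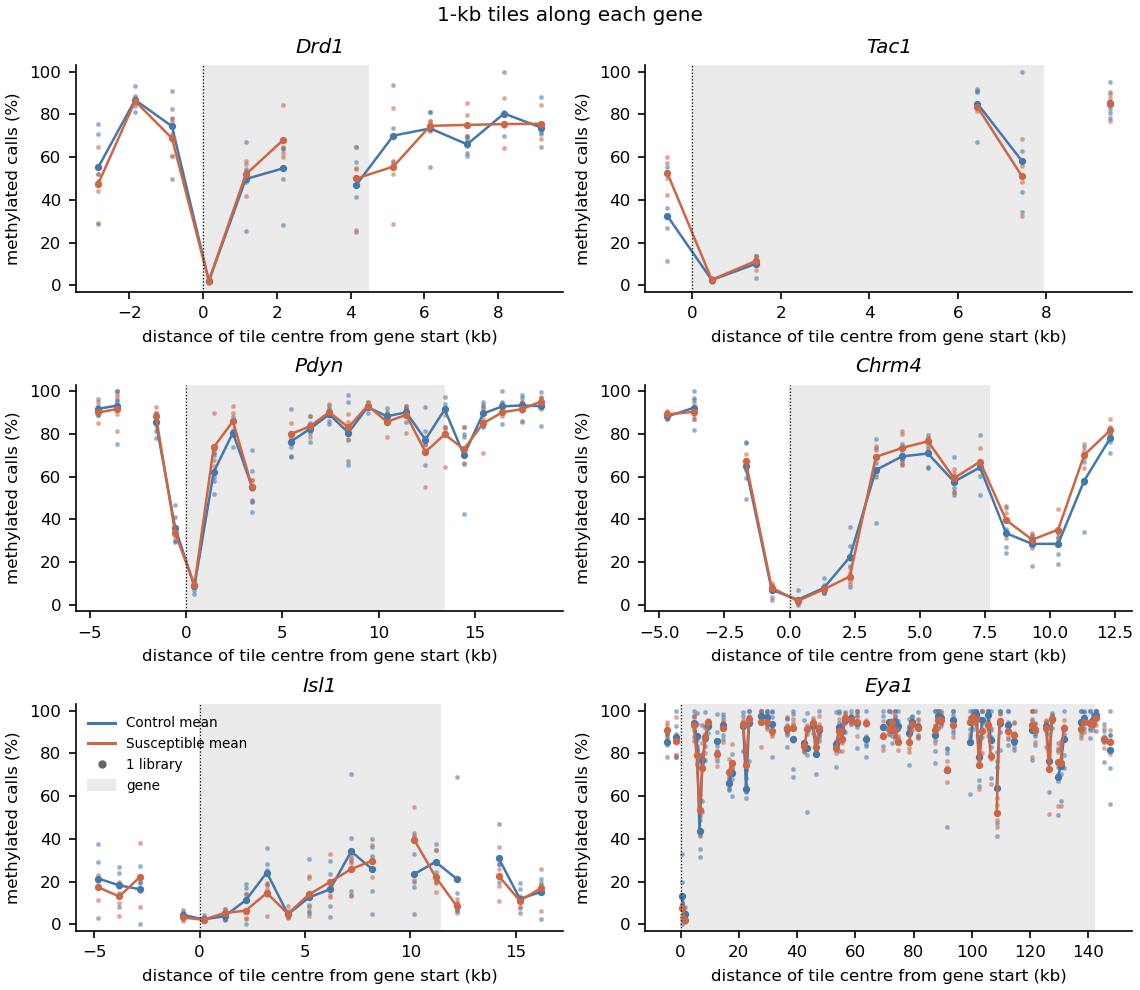
Methylated calls (percent) in 1-kb tiles against the distance of the tile centre from the gene start (kb), with small points for each library, larger points and lines for the Control (blue) and Susceptible (orange) means, grey shading for the gene and gaps where a tile missed the minimum. The dip is 1 tile wide in Drd1 and several tiles wide in Chrm4, and the means of the Isl1 tiles that passed the minimum stay under 50%.

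Of the 149 member tiles 0 were called, 6 had an unadjusted p under 0.05 (4.03%) and 1 had groups that did not overlap (0.671%). Over the genome 1041809 tiles were tested, of which 0% were called, 4.38% had an unadjusted p under 0.05 and 1.56% had groups apart, so the member shares were near or under the background. The largest difference within Tac1 was in the tile centred at -560 bp, upstream of the start, at chr6:7554001-7555000. The Control libraries there, ordered by number, gave 36.3, 55.3, 32.1, 26.9 and 11.4%, the Susceptible ones 57.3, 42.1, 59.9 and 50.3%. Control 3 lay among the Susceptible libraries and the other Control libraries lay under them. The means were 32.4% ± 15.9 (SD, n = 5) and 52.4% ± 7.97 (SD, n = 4), which is +19.98 points (unadjusted p = 0.00353 and adjusted p = 0.997, quasi-binomial model; two-sided exact permutation p = 0.0556). It was +14.7 points without Control 8 and +11.2 points without Control 5 and Control 8.

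The member tile whose groups did not overlap lay 22534 bp inside Eya1, at chr1:14288001-14289000, and was singled out after its values were seen. Its Control libraries read 65.4, 68.7, 59.2, 62.1 and 62.3% and its Susceptible libraries 72.3, 72.6, 79.1 and 74.1%, each above every Control value. The difference was +11.0 points, with no library under 10 CpGs or 361 calls there (unadjusted p = 0.00245, adjusted p = 0.997, quasi-binomial model; two-sided exact permutation p = 0.0159). As the tile was picked for groups that do not overlap, a low permutation p was set by that choice. The largest difference in Eya1, -11.6 points at +108534 bp, rested on 3 to 5 CpGs, and its Control libraries ranged from 41.5 to 80.8% around the Susceptible range of 45.4 to 59.4%; it was -7.38 points without Control 4 and -3.04 points over CpGs listed in all 9 libraries.

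In the other 4 genes the largest differences were taken among the tiles that passed the minimum. Chrm4 had +11.96 points at +11312 bp (chr2:91933001-91934000, within Dgkz), where Control 5 read 34.2% and the other libraries 57.2 to 75.3%; it was +5.99 points without Control 5 and +3.68 points without Control 5 and Control 8. Pdyn had -11.7 points in the tile over its 3' end, at +13437 bp, where Susceptible 7 read 64.6% and the other libraries 82.5 to 97.2%; without Susceptible 7 it was -6.65 points. Isl1 had +15.8 points at +10187 bp, on 4 to 10 CpGs, from 4.86% in Control 5 to 54.9% in Susceptible 6. Drd1 had -14.5 points at +5157 bp, beyond the gene, from 28.8% in Susceptible 6 to 93.6% in Control 4. That Drd1 tile rested on 3 to 8 CpGs and 52 to 178 calls. The Drd1 tile difference was -5.55 points without Susceptible 6, -23.7 points without Susceptible 7 and -8.62 points without Control 4. In these 4 tiles the groups overlapped and the adjusted p was 0.997.

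**Figure D4:**
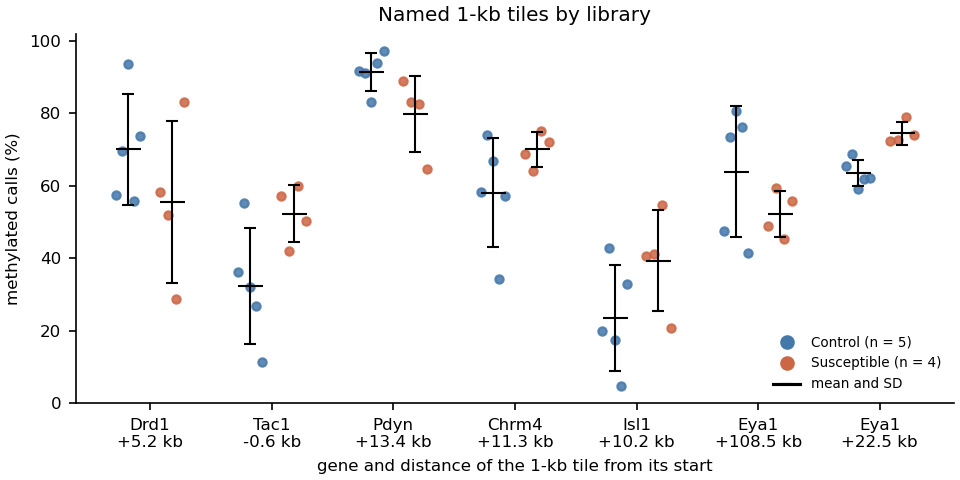
Methylated calls (percent) by library in the tile with the largest group difference for each gene, and at the right the Eya1 tile at +22.5 kb; blue points are Control (n = 5), orange points Susceptible (n = 4), bars mean and SD, and the axis names give the distance of the tile from the gene start. The points of the groups overlap in the 6 tiles of largest difference and not in the Eya1 tile at +22.5 kb.

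Other genes of the same cells and of their signalling were listed alongside; each list had 0 genes called in start windows and in bodies. Among 7 genes listed for D1 receptor signalling (Gnal, Gng7, Adcy5, Ppp1r1b, Pde1b, Pde10a and Rgs9) all 7 body means were higher in Susceptible libraries. Their median difference was +4.67 points, the largest was Adcy5 at +6.76 points, and 1 of the 7 had an unadjusted p under 0.05. At their starts 4 of the 7 were higher and 3 lower, with a median of +0.69 points, and the largest was Gng7 at +3.01 points. Over all bodies 60.3% had a lower Susceptible mean and 5.11% had an unadjusted p under 0.05. In the bodies of 5 of these 7, Susceptible 6 and Susceptible 7 both exceeded the other 7 libraries, as they did in 5 of the 6 genes listed for both projection neuron types, in 0 of the 6 direct pathway genes and in 2.51% of all bodies. Ppp1r1b, Pde10a and Rgs9 stand in both lists, so 3 of the 5 genes in each count are the same. The same held for 2 of the 6 indirect pathway genes (Adora2a and Gpr6) and 1 of the other muscarinic receptors (Chrm1). This pattern was picked after its values were seen, and 0 of 6 is near the share over all bodies. The median over the 7 signalling bodies was 58.5 and 60.3% in Susceptible 6 and 7. It was 50.7 and 52.2% in Susceptible 2 and 3, and 49.1 to 53.6% in the Control libraries. For both projection neuron types the values were, in the same order, 66.7 and 68.9%, 58.7 and 58.6%, and 57.1 to 61.2%. Adcy5, the adenylyl cyclase that D1 receptors drive, read 65.96% and 69.8% in Susceptible 6 and 7 and 51.6 to 57.5% in the rest. Drd1 itself was at 25.99% in Susceptible 6, under its own mean, and at its maximum in Susceptible 7. Without Susceptible 6 and Susceptible 7 the body differences of the direct pathway genes were +2.51 points for Drd1, +2.04 for Chrm4, -2.81 for Tac1, +1.66 for Pdyn, +0.50 for Isl1 and -0.82 for Eya1.

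**Figure D5:**
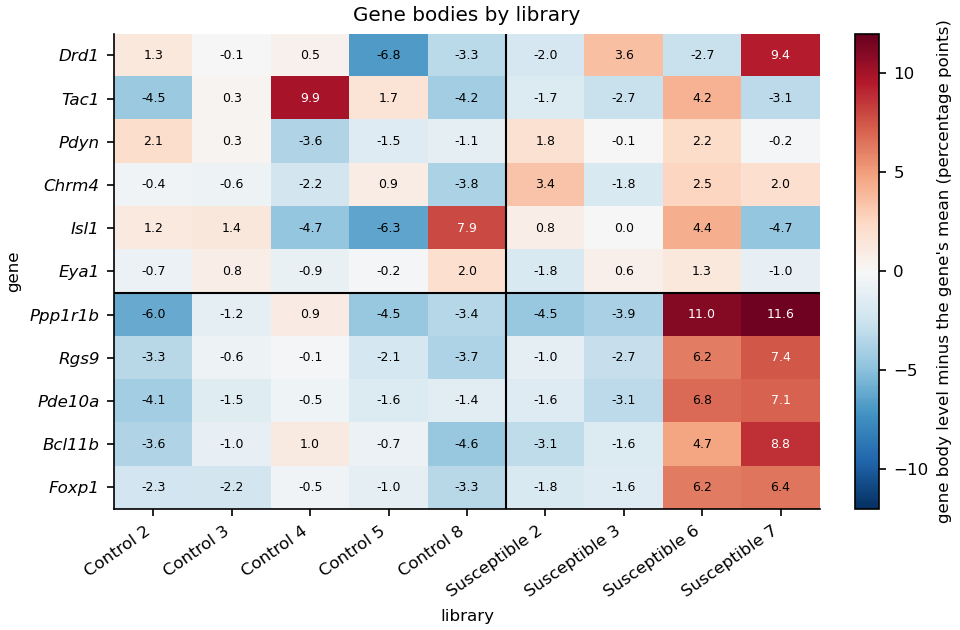
Gene body level in each library minus the mean of that gene over the 9 libraries (percentage points), for the 6 direct pathway genes (above the line) and 5 of the 6 genes listed for both projection neuron types (under it); red is above and blue under the mean. Susceptible 6 and 7 are both red for the 5 lower genes, by 4.7 points or more, and among the direct pathway genes Isl1 and Eya1 are highest in Control 8, Drd1 in Susceptible 7, Tac1 in Control 4, Pdyn in Susceptible 6 and Chrm4 in Susceptible 2, with Chrm4 above its mean in Susceptible 6 and 7 too.

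Of the 4 other direct pathway genes listed (Sfxn1, Slc35d3, Asic4 and Ebf1), body differences ran from -1.23 to +2.86 points, the latter in Slc35d3, and the largest start difference was +2.42 points in Asic4. In the 6 indirect pathway genes the body median was -0.35 points, from -5.46 in Penk to +2.94, and the largest start difference was +4.13 points in Gpr52. Their start median was -1.11 points, with 4 of the 6 lower in Susceptible libraries and 2 higher. The genes for both neuron types had a body median of +4.16 points, the largest being Ppp1r1b at +6.39. The receptors of the peptides, Tacr1 and Oprk1, differed by -0.78 and -0.38 points in the body, and Oprk1 by +2.34 at the start. Of the other dopamine receptors Drd3 differed most, by +9.57 points at the start and +1.29 in the body. Of the other muscarinic receptors Chrm1 differed most at the start, by +4.04 points, and Chrm5 in the body, by -3.30 points. No strand was given for Asic4, Gpr52, Oprk1 and Chrm1, so the gene end with more listed CpGs stood for their starts.

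Markers of other cells in the punch gave these largest differences: Mobp -8.81 points at the start and Mag -3.63 in the body for oligodendrocytes, Gfap -5.64 and Gja1 -5.42 for astrocytes, Tmem119 -3.03 and Aif1 -2.35 for microglia. For cholinergic interneurons they were Chat -5.82 and Lhx8 -4.37, and for cortical projection neurons Neurod6 -2.75 and +4.65. No strand was given for Tmem119, so its start was the gene end with more listed CpGs, which averaged 87.4%. The groups did not overlap there, as in 1.99% of all start windows (adjusted p = 0.933, quasi-binomial model). The cholinergic starts were split, 2 higher and 2 lower, with a median of +0.14 points. Neurod6 went against its list: 3 of the 4 cortical genes were higher at the start (median +0.17) and 3 lower in the body (median -0.33). All 4 astrocyte genes had lower Susceptible means at the start and in the body, as did all 4 oligodendrocyte genes at the start and all 4 microglia genes in the body, against 52.0% of all start windows and 60.3% of all bodies. The other windows were split. Of the oligodendrocyte bodies 1 was higher (Mobp, +1.11 points) and 3 lower, and of the microglia starts 1 was higher (Aif1, +1.40 points) and 3 lower. The median over the astrocyte genes at the start was 30.7% in Susceptible 7 and 42.2 to 46.1% in the other 8 libraries, and in the body 68.0% in Susceptible 7 and 74.97 to 81.1% in the others. The part of cell makeup in the levels of the 6 direct pathway genes was not tested.

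Body levels of other genes were compared with each direct pathway gene over the 9 libraries, among 16265 genes with at least 50 CpGs in every library. The highest Pearson correlation was 0.924 for Drd1 (with Oga), 0.964 for Tac1 (Zpbp2), 0.945 for Pdyn (Dusp8), 0.934 for Chrm4 (Hdac6), 0.982 for Isl1 (Rita1) and 0.938 for Eya1 (Clec12b). Next in likeness were Gm52006 and Znhit1 for Drd1, Pitpna and Ralgapa1 for Tac1, Ubxn10 and A630023A22Rik for Pdyn, Garre1 and Cd48 for Chrm4, Tep1 and Ppp4c for Isl1, and Nbn and BC035044 for Eya1. No direct pathway gene was among the 3 most like another, which is likely in any case with 3 places among 16265 genes. These are descriptions over 9 libraries of unequal depth, with both levels of a pair taken from the same libraries, and they were picked as maxima from many genes.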

How the data were processed

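The authors deposited, for each library, cytosines of CpGs by strand with a count of calls (coverage, whole numbers of at least 10) and the percent of them that stayed C or turned to T, as their headers say. The submitters' processing notes name Bismark, Bowtie, Picard and the build mm10; versions and settings, deduplication among them, were not stated there. Listed calls per library ran from 313475624 to 570984634 and are what passed that minimum, not full depth. Levels of autosomes were 74.5 to 77.1%. Hydroxymethylation also reads as methylated.

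Methylated calls were recovered from each deposited count and percent, and strands were added. Gene bounds and strands came from RefSeq tables of GRCm38.p6. For 17274 of 21631 genes the table gave a strand; for the others, Eya1 included, the gene end with more CpGs stood for the start. Sums over each feature were fitted by a quasi-binomial logistic model, whose dispersion was moderated as limma's squeezeVar does, with a floor of 1, and Benjamini-Hochberg adjustment over all features of a kind (those with 3 or more CpGs and 20 or more calls per library). The fit was tested on simulated data. Exact permutation tests of start and body values, named tiles and promoter windows, over all relabellings of the libraries, are unadjusted; the smallest p they can give is 0.00794.

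Named besides the 6 genes were, by rule, the tile of lowest level and of largest difference in each, the gene of largest difference in each list and the 3 genes most like each in body level. For 1 gene listed for both projection neuron types, which enters that list's counts and median, values are not reported here. Members, lists and rules were chosen with earlier results of these data known. The level beyond 1 kb of the start was added after seeing the data. So were the count of bodies with Susceptible 6 and Susceptible 7 above all others and the fit without these libraries. Python 3.11 was used with numpy, scipy and pandas.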

Additional observations from a re-analysis of the deposited data

Results flagged for a closer look

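At the Chrm4 start, Control 3 read 2.28% (95% Wilson interval 1.84 to 2.82%, counting error only) while the other 4 Control libraries read 4.86 to 5.28%, so it stood far from the rest of its group. It was 1 of 36 groups of libraries examined so (starts, bodies and largest-difference tiles), and chance alone marks about 1 group in 20. Susceptible 7 read 2.58% in the same window.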

How the results depend on the processing

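0 start windows and 0 bodies were called under every alternative run, the fits that leave out 1 library included. For tiles the count was 0 except for 1 tile without Control 4 (range 0 to 1 over libraries left out) and 497 of 1041809 with the replicate number as a block. The block fit keeps only the libraries numbered 2 and 3 in each group, as no other number occurs in both. Without the block, over all libraries, the count was 0. Deviations of same-numbered libraries from their group means correlated at -0.0211 to 0.0258 across starts, bodies and tiles. Those of different-numbered libraries correlated at -0.0954 to 0.132. With only numbers 2 and 3 shared, these values cannot settle whether the numbers pair the libraries. The largest-difference tile of each gene was not called with the block. Its difference there was +3.87 points for Tac1, +0.37 for Chrm4, -8.43 for Drd1, -5.51 for Pdyn, +9.64 for Isl1 and -6.44 for Eya1. With the block the body difference was +0.23 for Drd1, +1.31 for Chrm4, -0.077 for Tac1 and -0.69 for Eya1, and the Eya1 start difference was -13.04. Over numbers 2 and 3 alone the difference (points) had the opposite sign at the Tac1 start (-1.60), Chrm4 start (+1.80), Isl1 start (+0.16), Pdyn body (-0.32) and Isl1 body (-0.89). All differences given with the block are plain differences of group means over numbers 2 and 3. They show the loss of the other libraries and not an effect of the block.

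No member was called in any alternative, and 292 of 337 member values kept their sign; the others turned. That count overstates stability. Alternatives that change only the test or the minimum leave the difference as it was, so those signs could not turn. The tiles, picked for their largest difference, all kept their sign. The Chrm4 start kept its sign in 8 of 21 alternatives and the Drd1 start in 13 of 21. With at least 20 calls per cytosine those that turned were the Drd1 (+0.66), Pdyn (+0.43) and Chrm4 (+0.0047) starts and the Eya1 body (+0.64). Over CpGs listed in all 9 libraries those that turned were the Drd1 (+0.092), Pdyn (+0.45) and Chrm4 (+0.064) starts. Without the most covered CpGs those that turned were the Drd1 (+1.02) and Chrm4 (+0.013) starts and the Tac1 body (+0.59), and with CpGs weighted equally the Drd1 start (+1.01) and Tac1 body (+4.51). Windows of 500 bp turned the Chrm4 start (+0.44), and windows of 2 kb turned Drd1 (+0.56), Pdyn (+2.87) and Chrm4 (+0.72). Without Control 5 and Control 8 the Drd1 (+0.46), Tac1 (-0.77), Chrm4 (+0.16) and Isl1 (+0.20) starts and the Eya1 body (+0.024) turned, and without Susceptible 6 and 7 the Chrm4 start (+1.04). Leaving out 1 library gave -2.42 to +2.06 for the Drd1 start, -0.28 to +3.14 for Tac1, -1.37 to +0.61 for Pdyn, -0.81 to +0.47 for Chrm4, -0.31 to +0.060 for Isl1 and -13.7 to -3.63 for Eya1, and -3.14 to +0.85 for the Tac1 body, -1.32 to +2.24 for Isl1 and -0.93 to +0.092 for Eya1. The cause was not tested. The Eya1 start has 0 CpGs listed in all 9 libraries, so it has no value there.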
